A study of Rattus norvegicus with 6 samples.

Results

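The renin-angiotensin system is the peptide hormone cascade that controls blood pressure and salt balance. Angiotensinogen is cut to angiotensin I, angiotensin-converting enzyme trims this to angiotensin II, and angiotensin II acts on the type 1 and type 2 receptors before aminopeptidases break it down. Fat tissue has a local version of the cascade. The 8 genes described here are Agt, Ace, Agtr1a, Agtr1b, Agtr2, Mas1, Enpep and Atp6ap2. They were taken as every probe set to which the platform annotation gives exactly 1 gene symbol, that symbol being one of the 8, whatever its brightness. This found 13 probe sets for the 8 genes, of 31042 probe sets and 14217 named genes on the array.

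RNA came from mesenterial adipose tissue of newborn wildtype Sprague-Dawley rats, an outbred strain. The dams of 3 samples were fed a vitamin D deficient diet with 0 IU of vitamin D per kg, and the dams of the other 3 samples an adequate diet with 1000 IU per kg. Each sample was read on 1 Affymetrix rat genome array, whose probe sets each give a signal in intensity units. Sex, litter and whether each sample is its own animal are not stated in the labels. The p-values may therefore reflect a technical spread alone, and 3 arrays a group limit the precision throughout. In bulk tissue, fewer cells of a type and less RNA per cell cannot be told apart.

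Deficient arrays 1 and 2 differed from all 4 other arrays. On the leading principal component, which held 49.5% of the variance, they lay at -43.1 and -46.4, against 18.5 to 26.2 for the others. Their bacterial hybridisation controls, over 4 probe sets, read 6.89 and 9.40 times the adequate mean, against 1.03 on deficient array 3. The 3′ over 5′ ratio of beta-actin, which is higher when RNA is degraded or labelled over a short stretch, was 7.56, 6.80 and 2.35 on deficient arrays 1 to 3 and 2.39, 4.81 and 2.58 on adequate arrays 1 to 3. Exact two-sided permutation tests of the log2 values gave p = 0.3 for the controls and p = 0.4 for beta-actin, where 0.1 is the smallest p that 3 against 3 arrays allow. The part of these measures in the results below was not tested, and results are given with deficient array 3 alone and without it. Of 10 adipocyte markers, 7 were bright enough to test. Fabp4 read 1581 to 2821 on the deficient and 2021 to 2451 on the adequate arrays. Lpl read 960 to 1826 on the deficient and 1245 to 1580 on the adequate arrays. Cfd, Lipe, Pnpla2, Cd36 and Dgat2 were the others tested, while Adipoq, Plin1 and Cidec were dim on all 6 arrays. Of the 7 tested, 5 were lower and 2 higher in the deficient group, where 55.3% of all tested probe sets were lower. Cfd and Dgat2 were lower without overlap, 2 of the 7, against 10.8% of all tested probe sets. The summed signal of all 10 was 4286 to 6618 on the deficient and 5420 to 5762 on the adequate arrays.

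The question is whether these genes were expressed at other levels in fat of newborns whose dams lacked dietary vitamin D. Enpep, which encodes the enzyme that degrades angiotensin II, had lower values in the deficient group on both of its probe sets, with no overlap between the groups. The groups overlapped for the type 2 receptor gene Agtr2 and for the brighter probe set of the type 1 receptor gene Agtr1a. The substrate gene Agt had a mean under the filter on dim probe sets. None of the members passed the threshold of an adjusted p of 0.05, and 0% of all tested probe sets did. The fit was limma on log2 signals over all 18625 probe sets whose mean was at or above the 40th percentile, a signal of 88.2. Of the 13 member probe sets 9 were tested, covering Ace, Enpep, Atp6ap2, Agtr1a and Agtr2.

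At an unadjusted p under 0.05, 2 of the 9 tested probe sets were lower and 0 higher in the deficient group, where 8.18% of all tested probe sets were lower and 6.03% higher, 14.2% together. The groups did not overlap for 3 of the 9, all lower, against 10.8% of all tested probe sets lower and 6.55% higher. With deficient array 3 alone 0 of the 9 had an unadjusted p under 0.05, against 6.52% of all tested probe sets, and without that array 5 did, against 35.3%. Past the adjusted threshold were 2 of the 9 (22.2%) without deficient array 3, against 19.4%, and 2 with limma's array weights, against 18.6%. The shares past the adjusted threshold lie near the background. With all 6 arrays the lower shares of 22.2% at an unadjusted p under 0.05 and 33.3% without overlap are above it. They rest on 2 and 3 of 9 probe sets, both Enpep probe sets being in each, and their distance from the background was not tested. The median log2 change of the 9 was -0.12, and that of all tested probe sets -0.05.

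**Figure D1:**
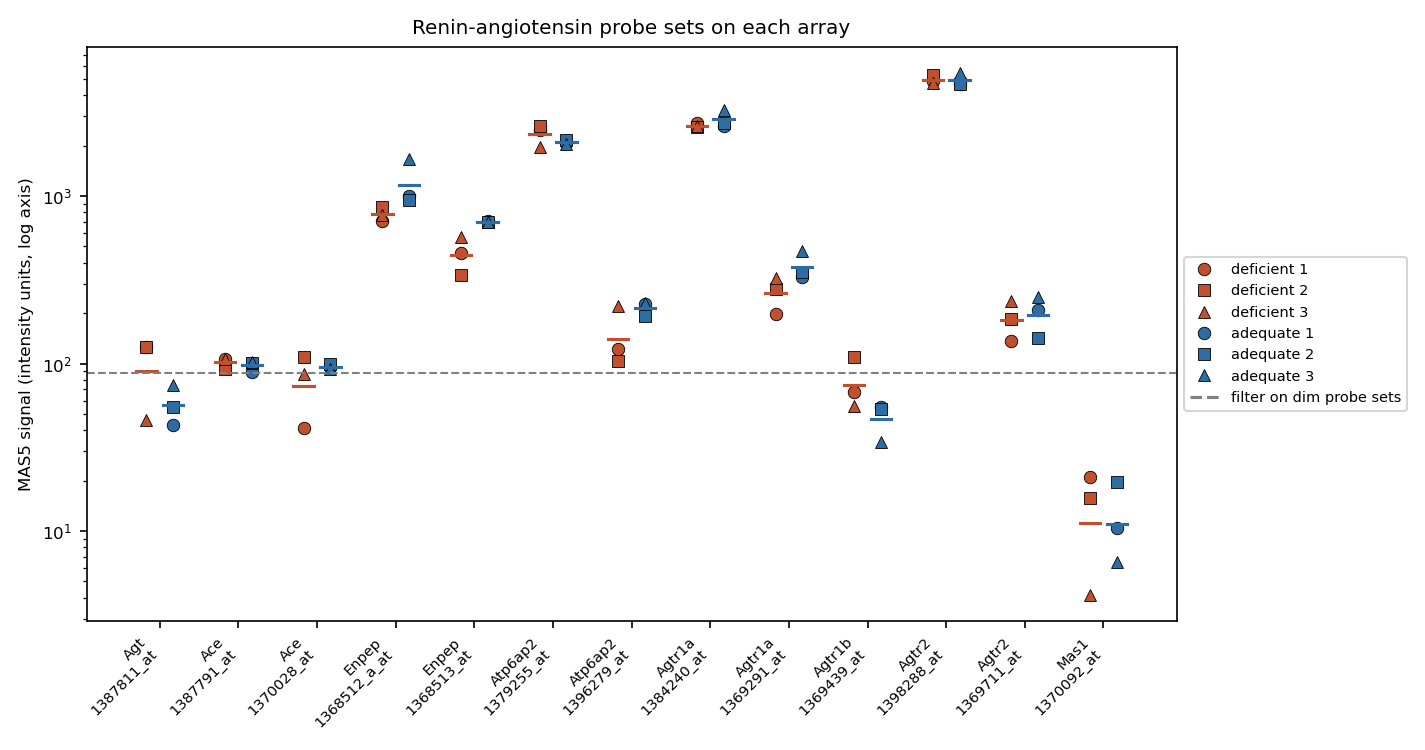
Signal of the 13 renin-angiotensin probe sets on each array, on a log axis in intensity units; red points are deficient arrays, blue points adequate arrays, the point shape is the array number, short lines are group means of the log2 signals and the dashed line is the filter on dim probe sets at 88.2. The Enpep groups are apart on both probe sets, while those of the brighter Agtr2 and Agtr1a probe sets overlap.

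Agt encodes angiotensinogen, the only known precursor of the angiotensins, which is made mainly by the liver and also by fat. Its probe set 1387811_at read 126, 125 and 46.1 on deficient arrays 1 to 3 and 43.1, 55.3 and 74.7 on adequate arrays 1 to 3. Deficient arrays 1 and 2 were thus high and deficient array 3 lay among the adequate arrays, so the groups overlapped. Signals above the cutoff were seen on 2 of 6 arrays. No fold is given, since the adequate group lies wholly under the cutoff and the gene was not tested. Without the filter, limma gave an adjusted p of 0.551.

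Ace encodes angiotensin-converting enzyme, an endothelial and epithelial peptidase that makes angiotensin II and breaks down bradykinin. Probe set 1387791_at read 106, 92.9 and 106 on deficient arrays 1 to 3 and 89.6, 101 and 102 on adequate arrays 1 to 3. These values lie just above the cutoff and overlap. The log2 change was 0.06 ± 0.24 (SE, n = 3 each, limma adjusted p = 0.915), with a 95% interval from -0.48 to 0.60. The interval leaves room for a fold between 0.719 and 1.51. The other Ace probe set, 1370028_at, had a mean under the cutoff and read 41.0, 110 and 86.2 on the deficient arrays and 95.3, 98.7 and 92.9 on the adequate arrays. Deficient arrays 1 and 3 were under and deficient array 2 was above the adequate range there. The deficient arrays thus spread widely around 3 nearly equal adequate values. Of 7 endothelial markers tested, 5 were lower and 2 higher, and their summed signal was 11533 to 13546 on the deficient and 13830 to 15062 on the adequate arrays. The part of endothelial cells in the Ace values was not tested.

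Enpep encodes aminopeptidase A, a membrane enzyme that removes the amino-terminal aspartate of angiotensin II and so turns it into angiotensin III. It is found on pericytes and on the brush borders of gut and kidney. Probe set 1368513_at read 455, 338 and 567 on deficient arrays 1 to 3 and 709, 701 and 696 on adequate arrays 1 to 3. Every deficient value was under the narrow adequate range. The log2 signal averaged 8.79 ± 0.38 in the deficient and 9.46 ± 0.01 in the adequate group (SD, n = 3 each). In log2 terms the change was -0.66 ± 0.21 (SE, n = 3 each), a fold of 0.632 with a 95% interval from 0.460 to 0.868, and limma gave an unadjusted p of 0.00892 and an adjusted p of 0.344.

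The other Enpep probe set, 1368512_a_at, read 715, 865 and 768 on deficient arrays 1 to 3 and 1006, 949 and 1675 on adequate arrays 1 to 3. Again no deficient array reached the adequate range, and adequate array 3 was far above the rest. The log2 signal averaged 9.61 ± 0.14 in the deficient and 10.19 ± 0.45 in the adequate group (SD, n = 3 each). Its log2 change was -0.58 ± 0.22 (SE, n = 3 each), a fold of 0.667 with a 95% interval from 0.475 to 0.938, at an unadjusted limma p of 0.0244 and an adjusted p of 0.344. Without adequate array 3 it was -0.32, with an unadjusted limma p of 0.127. Of the 1917 genes with exactly 2 tested probe sets, both were lower without overlap in 38, which is 1.98%; this background was counted after the Enpep values had been seen.

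The Enpep probe sets depended differently on the deficient arrays that stood apart. With deficient array 3 alone, the log2 change was -0.61 ± 0.31 (SE) for 1368512_a_at and -0.31 ± 0.18 (SE) for 1368513_at, with limma adjusted p of 0.765 and 0.777. Without deficient array 3, it was -0.57 ± 0.24 and -0.84 ± 0.18 (SE), and limma's adjusted p for 1368513_at was then 0.0118, in a fit where 19.4% of all tested probe sets passed. The value of 1368513_at thus depends on which deficient arrays enter, although its sign was negative in each of these fits.

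Markers of cells that carry aminopeptidase A were set beside these values. Of the 6 pericyte markers tested, 4 were lower and 2 higher, with a median log2 change of -0.08. The summed signal of all 7 on the array was 6560 to 7742 on the deficient and 6476 to 8266 on the adequate arrays, so it overlapped. Intestinal epithelium markers summed to 275, 617 and 136 on deficient arrays 1 to 3 and 617, 207 and 1652 on adequate arrays 1 to 3, highest on adequate array 3, where 1368512_a_at was also highest. Only Cdh17 of 7 such markers was tested, and the means of the others were under the filter. Apoa4, an apolipoprotein gene of the gut, read 5.91, 166 and 2.92 on deficient arrays 1 to 3 and 198, 5.42 and 509 on adequate arrays 1 to 3. Vil1, Fabp2, Cdh17 and Krt20 were also highest on adequate array 3. Fabp1 and Si were instead highest on adequate array 1, at 175 and 10.9, against 59.8 and 3.60 on adequate array 3. Of 6 kidney and adrenal markers only Lrp2 was tested. The part of these cells in the Enpep values was not tested.

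The start of Enpep is shown because both of its tested probe sets had lower values without overlap between the groups. The 300 bases from 250 before to 50 after the start are from RefSeq. Promoters were searched on both strands for AGGTCA, a hexamer that occurs as paired units in vitamin D response elements, and for its variants AGTTCA as well as GGTTCA. They were also searched for the TATA box, TATAAA. Matches stand in capitals, and the Enpep window has none.
Enpep (GRCr8 chr2:220526169-220526468, minus strand): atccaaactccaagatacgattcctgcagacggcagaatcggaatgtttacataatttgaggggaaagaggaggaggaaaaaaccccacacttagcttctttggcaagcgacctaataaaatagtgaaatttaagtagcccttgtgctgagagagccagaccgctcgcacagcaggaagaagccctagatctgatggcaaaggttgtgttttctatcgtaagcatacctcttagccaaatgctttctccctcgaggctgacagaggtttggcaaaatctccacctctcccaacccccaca
Among 33469 rat promoters of this length 35.9% hold at least 1 of the 3 hexamers and 14.2% hold TATAAA. The Enpep window has a GC content of 47.0%, against a median of 51.7% over all of them. RefSeq promoters were matched for 7 of the 8 genes.

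Atp6ap2 encodes the prorenin receptor, which is also an accessory subunit of the vacuolar proton pump. Its probe sets had values on opposite sides. Probe set 1379255_at read 2482, 2615 and 1966 on deficient arrays 1 to 3 and 2081, 2166 and 2050 on adequate arrays 1 to 3. Deficient arrays 1 and 2 were above and deficient array 3 was below all adequate arrays. The log2 change was 0.16 ± 0.16 (SE, n = 3 each, limma adjusted p = 0.630), with a 95% interval from -0.19 to 0.50.

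Probe set 1396279_at read 122, 104 and 219 on deficient arrays 1 to 3 and 227, 193 and 229 on adequate arrays 1 to 3. Here deficient arrays 1 and 2 were low and deficient array 3 lay within the adequate range. In log2 terms the change was -0.62 ± 0.29 (SE, n = 3 each, limma adjusted p = 0.360). Without deficient array 3 it was -0.94 ± 0.23 (SE), with a limma adjusted p of 0.0226. With deficient array 3 alone it was 0.02 ± 0.26 (SE). The log2 ratio of 1379255_at over 1396279_at was 4.35, 4.66 and 3.16 on deficient arrays 1 to 3 and 3.19, 3.49 and 3.16 on adequate arrays 1 to 3. It was highest on the 2 arrays with the highest beta-actin 3′ over 5′ ratio, 7.56 and 6.80, and next highest on adequate array 2, which had the next highest beta-actin ratio, 4.81. The part of RNA integrity in this was not tested. Opposite signs were common on this array, at 42.4% of the genes with exactly 2 tested probe sets.

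**Figure D2:**
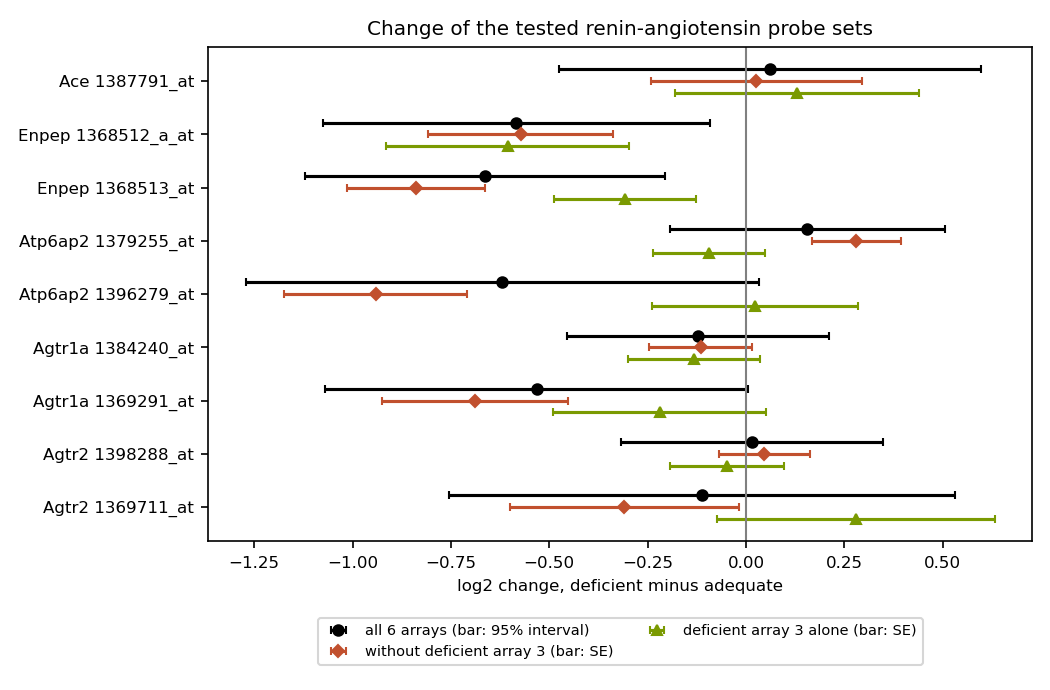
Log2 change (deficient minus adequate) of the 9 tested renin-angiotensin probe sets; black points use all 6 arrays with 95% intervals, red diamonds leave out deficient array 3 and green triangles use deficient array 3 alone, both with SE bars. Enpep lies under 0 in all 3 fits, while both Atp6ap2 probe sets change side with deficient array 3 alone.

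Agtr1a encodes the main type 1 receptor of rodents, through which angiotensin II constricts vessels. Its brighter probe set, 1384240_at, read 2721, 2576 and 2616 on deficient arrays 1 to 3 and 2618, 2743 and 3287 on adequate arrays 1 to 3. The groups overlapped, and adequate array 3 was high. The log2 signal averaged 11.36 ± 0.04 in the deficient and 11.49 ± 0.17 in the adequate group (SD, n = 3 each). Its log2 change was -0.12 ± 0.15 (SE, n = 3 each, limma adjusted p = 0.695), with a 95% interval of the fold from 0.730 to 1.16. Without adequate array 3 the log2 change was -0.02.

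The dimmer Agtr1a probe set, 1369291_at, read 198, 279 and 326 on deficient arrays 1 to 3 and 330, 350 and 472 on adequate arrays 1 to 3. The groups did not overlap, although deficient array 3 and adequate array 1 were almost equal. The log2 ratio of the brighter over this probe set was 3.78, 3.21 and 3.01 on deficient arrays 1 to 3. On adequate arrays 1 to 3 it was 2.99, 2.97 and 2.80. It was highest on deficient arrays 1 and 2, which had the highest beta-actin ratios. Adequate array 2, with the next highest beta-actin ratio, 4.81, was under deficient array 3 and adequate array 1. The part of RNA integrity in this ratio was not tested. The log2 change was -0.53 ± 0.24 (SE, n = 3 each), at an unadjusted limma p of 0.0521 and an adjusted p of 0.350. With deficient array 3 alone it was -0.22 ± 0.27 (SE), and without it -0.69 ± 0.24 (SE), with limma adjusted p of 0.883 and 0.0688.

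Liver transcripts moved with the brighter Agtr1a probe set. The named genes most like it over the 6 arrays were Afp, the fetal albumin-like protein gene, at a Pearson r of 0.995, LOC100911253 at 0.987 and Alb, the albumin gene, at 0.984. Liver is itself rich in type 1 receptor. Of the hepatocyte markers 6 were tested, all 6 lower, and the 8 on the array summed to 3005, 1411 and 1874 on deficient arrays 1 to 3 and 1811, 2154 and 6318 on adequate arrays 1 to 3. Adequate array 3 was highest for both the markers and Agtr1a. These r share 6 arrays, were picked as the highest among all tested named probe sets and are a description. Of 8 markers of vascular smooth muscle, where the type 1 receptor acts, 6 were higher and 2 lower, and they summed to 72711 to 115328 on the deficient and 57710 to 69468 on the adequate arrays. Deficient array 3 had the lowest of the deficient sums, and with it alone the median log2 change of these markers was 0.15, against 0.47 with all arrays. The part of liver RNA or smooth muscle in the Agtr1a values was not tested.

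**Figure D3:**
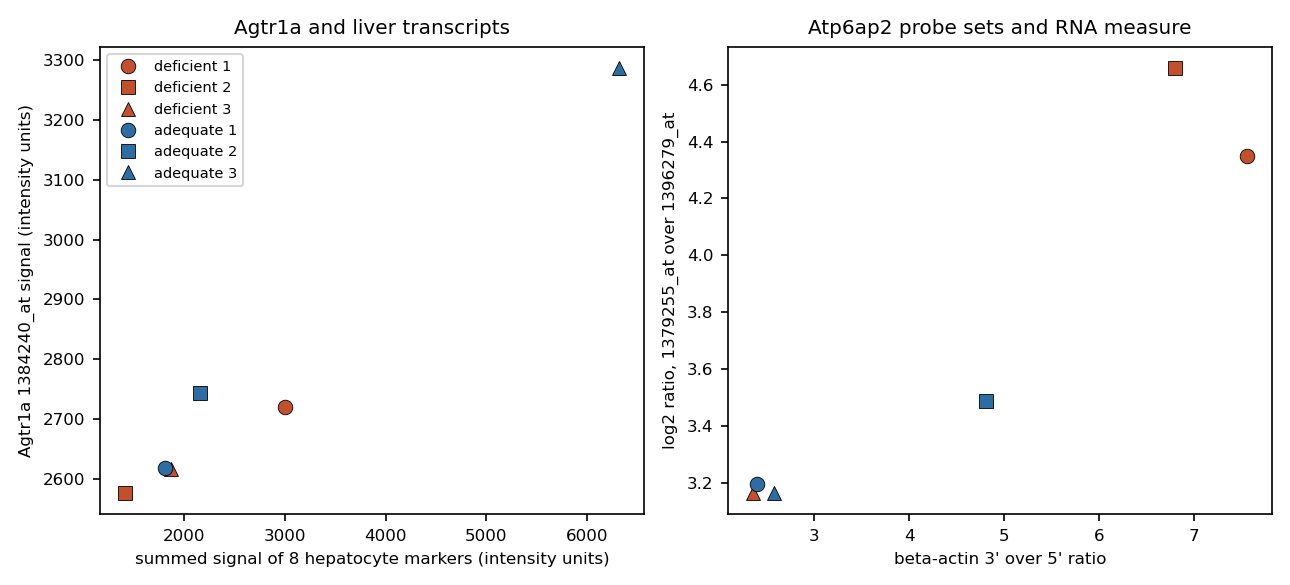
Left, signal of Agtr1a probe set 1384240_at against the summed signal of 8 hepatocyte markers, both in intensity units, 1 point per array; right, log2 ratio of the Atp6ap2 probe sets against the beta-actin 3′ over 5′ ratio. Red points are deficient and blue points adequate arrays, with the point shape for the array number. Adequate array 3 lies alone at the upper right on the left, and deficient arrays 1 and 2 at the upper right on the right.

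Agtr1b, the second type 1 receptor gene of rodents, is most active in adrenal and pituitary. Its probe set 1369439_at read 67.2, 109 and 55.5 on deficient arrays 1 to 3 and 55.1, 53.2 and 34.1 on adequate arrays 1 to 3. The groups did not overlap, by a gap of less than 1 intensity unit between deficient array 3 and adequate array 1. Only deficient array 2 was above the cutoff, so the probe set was not tested and no fold is given. Without the filter, limma gave an adjusted p of 0.515. The type 1 receptor genes are close copies, and whether their probe sets bind each other's RNA was not tested.

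The starts of these receptor copies are shown because the only Agtr1b probe set had higher, and the dimmer Agtr1a probe set lower, values on the deficient arrays. Neither is a called difference. The Agtr1b probe set was too dim to test, and the dimmer Agtr1a probe set had a limma adjusted p of 0.350. The groups overlapped for the brighter Agtr1a probe set. Capitals mark a TATAAA box at position -45 from the start in Agtr1a and the hexamer AGGTCA on the opposite strand at position -20.
Agtr1a (GRCr8 chr17:34435383-34435682, minus strand): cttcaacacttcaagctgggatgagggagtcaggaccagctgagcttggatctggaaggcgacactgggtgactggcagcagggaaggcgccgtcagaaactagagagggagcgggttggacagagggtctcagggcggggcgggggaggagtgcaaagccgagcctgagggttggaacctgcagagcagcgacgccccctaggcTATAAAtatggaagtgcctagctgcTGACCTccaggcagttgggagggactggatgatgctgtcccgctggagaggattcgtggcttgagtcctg
Agtr1b (GRCr8 chr2:104849213-104849512, minus strand): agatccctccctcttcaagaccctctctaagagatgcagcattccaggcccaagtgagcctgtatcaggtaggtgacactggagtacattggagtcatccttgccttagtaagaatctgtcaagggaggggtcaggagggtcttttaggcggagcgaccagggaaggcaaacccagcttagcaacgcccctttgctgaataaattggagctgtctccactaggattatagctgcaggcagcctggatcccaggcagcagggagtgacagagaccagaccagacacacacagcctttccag
Neither TATAAA nor any of the 3 hexamers is found in the Agtr1b window. Other variants of the hexamer were not searched for, so any in the printed windows are unmarked. AGGTCA is held by 16.2% of all promoters of this length.

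Agtr2 encodes the type 2 receptor, which is abundant in fetal connective tissue, declines after birth and often opposes the type 1 receptor. Its brighter probe set, 1398288_at, read 4869, 5287 and 4752 on deficient arrays 1 to 3 and 4656, 4697 and 5425 on adequate arrays 1 to 3. All 6 values were far above the cutoff and the groups overlapped. The log2 signal averaged 12.28 ± 0.08 in the deficient and 12.26 ± 0.12 in the adequate group (SD, n = 3 each). In log2 terms the change was 0.01 ± 0.15 (SE, n = 3 each, limma adjusted p = 0.970), with a 95% interval of the fold from 0.802 to 1.27. The other Agtr2 probe set, 1369711_at, read 136, 184 and 237 on the deficient and 209, 142 and 251 on the adequate arrays. It overlapped as well, with a log2 change of -0.11 ± 0.29 (SE, n = 3 each, limma adjusted p = 0.864) and a 95% interval of the fold from 0.592 to 1.44. Of 7 fibroblast markers tested 6 were higher and 1 lower. They summed to 147730, 147283 and 71462 on deficient arrays 1 to 3 and 68089 to 80826 on the adequate arrays, and their part in the Agtr2 values was not tested.

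Mas1 encodes the Mas receptor, which responds to angiotensin 1-7 and is known mainly from brain and testis. Its probe set 1370092_at read 21.1, 15.8 and 4.16 on deficient arrays 1 to 3 and 10.5, 19.6 and 6.54 on adequate arrays 1 to 3. It was under the cutoff on all 6 arrays and no comparison is drawn from it.

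The named genes most like the other tested members over the 6 arrays were found in the same way, from the brightest probe set of each. They were Dgat2 (r = 0.991), which makes triglyceride, Med28 (0.990) and Abcc4 (0.976) for Enpep. For Agtr2 they were Wapl (0.990), Gpr15lg (0.965) and Edem1 (0.964), and for Ace they were Acad8 (0.974), Zfp821 (0.971) and Cdc42 (0.970). For Atp6ap2 they were Zeb2, Serinc5 and Wipf1, at r of 0.999, 0.998 and 0.997. With Atp6ap2, 406 probe sets had an r over 0.95, against 6 to 13 with the other 4 members. Deficient arrays 1 and 2 are high for Atp6ap2, and they are the arrays that stood apart on the leading principal component.

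Other genes of angiotensin formation, breakdown and signalling were taken from 5 lists. Of 40 genes 34 had a probe set named here and 26 were tested by their brightest probe set. None passed the adjusted threshold. At an unadjusted p under 0.05, 5 of the 26 were lower (Prcp, Ctsd, Anpep, Mtus1 and Cyba) and 0 higher, against a background of 8.18% lower and 6.03% higher. The median log2 change was -0.22, against -0.05 for all tested probe sets, and with deficient array 3 alone it was -0.11, against 0.00. Without deficient array 3, 5 of the 26 (Prcp, Ctsd, Agtrap, Rgs5 and Cyba) passed limma's adjusted threshold (19.2%), against 19.4% of all tested probe sets.

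Among enzymes that can form angiotensins, Ctsd, the gene of the lysosomal protease cathepsin D, read 1120, 1133 and 2337 on deficient arrays 1 to 3 and 2050, 2252 and 2432 on adequate arrays 1 to 3. Deficient array 3 lay within the adequate range. Its log2 change was -0.64 ± 0.26 (SE, n = 3 each, limma adjusted p = 0.344), 0.06 with deficient array 3 alone and -0.99 without it, the last with a limma adjusted p of 0.00158. Cma1, the mast cell chymase gene, had -0.30 ± 0.16 (SE, limma adjusted p = 0.393). Of the mast cell markers 6 of 6 tested had lower values, and the 7 on the array summed to 3415, 3479 and 5662 on deficient arrays 1 to 3 and 3972 to 6156 on the adequate arrays. Deficient array 3 lay within the adequate range. With that array alone the median log2 change of the markers was -0.07, against -0.28 with all arrays. Mcpt1 and Tpsab1 turned to 0.41 and 0.03, while Hdc, Fcer1a, Ms4a2 and Cpa3 had -0.55, -0.48, -0.11 and -0.03. With all arrays Fcer1a and Ms4a2 had only -0.014 and -0.0096. Ctsg was not analysed here.

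Among peptidases that break angiotensins down, Prcp encodes a carboxypeptidase that removes the last residue of angiotensin II and III. It read 387, 266 and 462 on deficient arrays 1 to 3 and 901, 789 and 539 on adequate arrays 1 to 3, without overlap. The log2 change was -1.002 ± 0.256 (SE, n = 3 each), at an unadjusted limma p of 0.00273 and an adjusted p of 0.344, and its other tested probe set had -0.26 ± 0.28 (SE). With deficient array 3 alone it was -0.65 (limma adjusted p = 0.759). Anpep, which encodes aminopeptidase N and cuts angiotensin III, had -0.53 ± 0.22 (SE, limma adjusted p = 0.344), with overlapping groups. Nln, the neurolysin gene, had -0.37 ± 0.22 (SE, limma adjusted p = 0.433).

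Mme encodes neprilysin, which makes angiotensin 1-7. It read 383, 353 and 328 on the deficient and 302, 317 and 305 on the adequate arrays, without overlap, but the log2 change of 0.20 ± 0.18 (SE, n = 3 each) had a limma adjusted p of 0.586. Lnpep, the gene of the insulin-regulated aminopeptidase that binds angiotensin IV, had a mean under the cutoff and was not tested. It read 95.7, 93.9 and 37.8 on the deficient and 37.6, 29.1 and 67.5 on the adequate arrays.

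Among proteins that bind the receptors, Mtus1 encodes a partner of the type 2 receptor. It read 369, 400 and 452 on deficient arrays 1 to 3 and 583, 507 and 520 on adequate arrays 1 to 3, without overlap. In log2 terms the change was -0.40 ± 0.17 (SE, n = 3 each, limma adjusted p = 0.347), and its other tested probe sets had -0.23 and -0.34. Agtrap, whose product promotes internalisation of the type 1 receptor, read 194, 190 and 416 on the deficient and 334, 325 and 346 on the adequate arrays. Deficient array 3 was the highest of all 6 and deficient arrays 1 and 2 the lowest, and the log2 change was -0.43 ± 0.29 (SE, n = 3 each, limma adjusted p = 0.474). It was 0.31 with deficient array 3 alone and -0.80 without it, the last with a limma adjusted p of 0.0187. The other tested Agtrap probe set read 174, 178 and 193 on the deficient and 213, 216 and 219 on the adequate arrays, without overlap. Its log2 change was -0.25 ± 0.20 (SE, n = 3 each, limma adjusted p = 0.534), and -0.17 with deficient array 3 alone. Arap1 had -0.30 ± 0.15 and Atp6ap1, another accessory subunit of the proton pump, -0.21 ± 0.16 (SE), with limma adjusted p of 0.363 and 0.516.

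In receptor signalling, Cyba, a subunit gene of the superoxide-forming NADPH oxidase, had a log2 change of -0.56 ± 0.21 (SE, n = 3 each, limma adjusted p = 0.344). Phagocytes are rich in this oxidase, and of 7 macrophage markers tested 6 were lower and 1 higher, summing to 4328, 4772 and 6895 on deficient arrays 1 to 3 and 6323 to 7180 on the adequate arrays. Their median log2 change was -0.34 with all arrays and -0.006 with deficient array 3 alone. Their part in the Cyba values was not tested. Rgs5 and Rgs2, which damp signals of Gq-coupled receptors, had -0.55 ± 0.28 and -0.29 ± 0.17 (SE), with limma adjusted p of 0.379 and 0.411. Rgs5 read 939, 886 and 1874 on deficient arrays 1 to 3 and 1816, 1297 and 2056 on adequate arrays 1 to 3, so only deficient arrays 1 and 2 were under the adequate range. Its log2 change was 0.15 with deficient array 3 alone and -0.89 without it, with limma adjusted p of 0.915 and 0.0124. Arrb2, a beta-arrestin gene, had -0.35 ± 0.21 (SE, limma adjusted p = 0.432). Of the 10 tested signalling genes 8 had lower values and 2 higher, where 55.3% of all tested probe sets were lower. In the aldosterone and mineralocorticoid list only Hsd11b2, which inactivates corticosterone, and Sgk1, a kinase induced by aldosterone, were tested. They had log2 changes of -0.20 ± 0.30 and 0.01 ± 0.28 (SE), with limma adjusted p of 0.759 and 0.994, and Sgk1 had -0.50 with deficient array 3 alone.

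**Figure D4:**
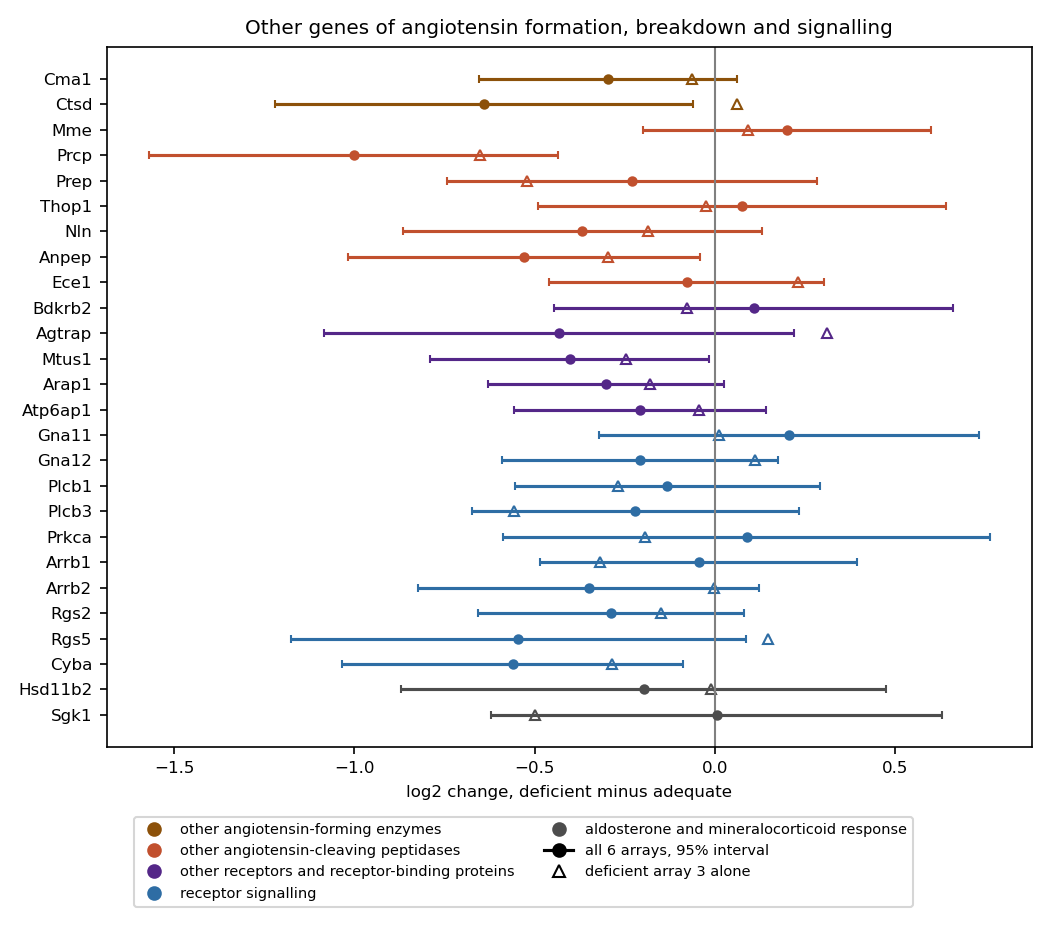
Log2 change (deficient minus adequate) of the 26 tested genes of the 5 further lists, coloured by list; filled points with 95% intervals use all 6 arrays and open triangles use deficient array 3 alone. Of the 26 points 20 lie under 0, where 55.3% of all tested probe sets do, Prcp lowest at -1.002, and none passed the adjusted threshold.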

How the data were processed

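The authors deposited 1 linear intensity signal per probe set and array; MAS5 and Affymetrix Expression Console are named, per the submitters' processing notes, without versions. Each array has a 2% trimmed mean of about 500.1 to 500.2, so arrays were scaled to a common level. For background settings and detection calls, nothing is stated in the labels or the file. The median signal per array was 155 to 166.

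Here 57 control probe sets were set aside, signals were log2 transformed with no offset, and probe sets with a mean under the 40th percentile (88.2) were not tested. Deficient minus adequate was fitted with limma 3.58.1 in R 4.3.3 (lmFit, eBayes with a variance trend, two-sided, Benjamini-Hochberg over 18625 probe sets). When 200 of 18625 probe sets were changed in data simulated after this comparison, 53% were recovered at a log2 change of 1 and 99% at 2, with 12 false calls. The simulated noise was independent for each probe set and array. It held no difference shared across a whole array, such as that of deficient arrays 1 and 2, so these rates need not hold for the real arrays. Genes were named only from probe sets with 1 symbol; of 20826 such probe sets 20758 were matched to RefSeq by Entrez identifier. Members and lists were chosen with earlier results of these data known. Every member is named, as are the 4 genes of each further list with the smallest p, the 3 genes most like each tested member, and Cma1, Mme, Lnpep and Agtrap; other genes of this rule are not reported here. Alternatives were quantile normalization, median centring, other filters, an offset of 50, other variance models, limma's array weights, a block for the replicate number, a covariate of hybridisation controls, and leaving out arrays.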

Additional observations from a re-analysis of the deposited data

How the results depend on the processing

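No member passed the adjusted threshold in 16 of the fits compared, and 2 did without deficient array 3 and with array weights, Enpep 1368513_at and Atp6ap2 1396279_at in each. With array weights 3462 of all probe sets passed, 6 of them further pathway genes, 6678 probe sets and 4 members had an unadjusted p under 0.05, and the members' adjusted p were 0.0129 and 0.0235. Leaving out each array in turn gave 0 to 3614 probe sets past the adjusted threshold, 906 to 6572 at an unadjusted p under 0.05 against 2647 with all arrays, 0 to 2 members past the adjusted and 1 to 5 under the unadjusted threshold, and 0 to 5 further pathway genes. With deficient array 3 alone 1214 probe sets and 0 members had an unadjusted p under 0.05, and with a hybridisation covariate 799 and 0. After quantile normalization 1 member did. The cause was not tested.

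With the replicate number as a block 4 members had an unadjusted p under 0.05 and 0 passed. Same-numbered arrays deviated together with r of 0.107, 0.153 and 0.007, in each case the highest r of that deficient array. Differently numbered arrays had r of -0.139 to 0.051, and adequate array 3 was closer to deficient array 1 (0.051). The labels do not say whether same-numbered samples belong together, so a pairing is neither shown nor excluded.

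Signs turned for 5 of the 9 tested member probe sets. Of the dim member probe sets that were not tested, Ace 1370028_at and Mas1 1370092_at also turned. Ace 1387791_at was -0.039 after quantile normalization. Agtr2 1369711_at was 0.28 with deficient array 3 alone, 0.26 with the hybridisation covariate and -0.341 to 0.094 over the arrays left out. Agtr2 1398288_at was -0.048, -0.069 and -0.031 to 0.086 in these fits and -0.128 after quantile normalization. Atp6ap2 1379255_at was -0.094 and -0.098, and 1396279_at 0.024 and 0.044, with deficient array 3 alone and with the covariate. Both Enpep probe sets and both Agtr1a probe sets kept their negative sign in every fit compared. Their size did not stay the same. With the hybridisation covariate Enpep 1368513_at was -0.28, against -0.66 in the main fit, and 1368512_a_at -0.66, against -0.58. Agtr1a 1369291_at was -0.29, against -0.53, and 1384240_at -0.15, against -0.12. The limma adjusted p with this covariate were 0.988 to 0.989.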
